A study of Arabidopsis thaliana with 12 samples.

Results

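Ascorbate peroxidases and catalases are among the enzymes that break down hydrogen peroxide in plant cells. The group described here held 9 Arabidopsis genes, chosen by locus: 6 ascorbate peroxidase genes (APX1, APX2, APX3, APX4, SAPX and TAPX) and 3 catalase genes (CAT1, CAT2 and CAT3). They were 9 of the 25665 loci with a probe on the arrays, and 8 of them were among the 20640 loci that passed the filter on dim spots. APX2 did not pass. The 9 genes were measured by 10 probes, since CAT3 had 2.

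The series profiled whole seedlings of 3 genotypes in the Columbia-0 background on 12 one-colour Agilent arrays, 4 per genotype. GLK1-SRDX seedlings carried a transgene in which the 35S promoter, active in most tissues, drives GLK1 fused to the SRDX repression domain. The glk1 glk2 seedlings carried mutations in both GLK genes, which encode transcription factors that promote chloroplast development, and the wild-type seedlings carried neither change. All seedlings were 2 weeks old, had received no treatment, and came from MS agar that held 1% sucrose, kept at 23 °C in cycles of 16 h light and 8 h dark. Many seedlings were pooled for RNA, per the labels, and how many transgenic lines were used was not given in the sources used here. No label states that replicates were separate cultures, and the p-values then cover only the spread among these arrays, which can be technical.

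Ascorbate peroxidases reduce hydrogen peroxide to water with electrons from ascorbate, which the ascorbate-glutathione cycle then regenerates. Catalases split hydrogen peroxide without a reductant and sit in peroxisomes, where photorespiration produces it in illuminated leaves. Each isoform belongs to a compartment. APX1 and APX2 are cytosolic, APX3 and the catalases are peroxisomal, SAPX is found in the chloroplast stroma, TAPX is bound to the thylakoid membrane, and APX4 (also named TL29) is a thylakoid lumen protein related to the ascorbate peroxidases that is thought to lack their activity.

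The genotype labels were set against the GLK transcripts first. In GLK1-SRDX, GLK1 (AT2G20570) was 0.84 ± 0.28 log2 units above wild type (SE, limma adjusted p = 0.0661), and GLK2 (AT5G44190) was 0.62 ± 0.19 above it (adjusted p = 0.0538). In glk1 glk2, GLK1 fell by 2.23 ± 0.28 (adjusted p = 0.00290) and GLK2 fell by 7.51 ± 0.19 (adjusted p = 5.12e-09). Levels throughout are log2 of the processed intensity over the array's 75th percentile, differences are differences of those levels, and levels of different genes are not compared because each has its own probe. "Rose" and "fell" refer to a limma adjusted p under 0.05. All 4 GLK1-SRDX arrays lay on a slide of their own, and that slide and the genotype cannot be told apart, whereas 2 slides each held 2 glk1 glk2 and 2 wild-type arrays. The replicate 3 array of glk1 glk2 stood apart from its group. The median level of the 9 green shoot markers was 5.81 on it and 6.24 to 6.64 on the other 11 arrays. The number of loci called between glk1 glk2 and wild type was 3220 without it and 681 with it. Every fit without it kept the wild-type replicate 3 array, whose green shoot marker median of 6.24 was the lowest of wild type. In whole seedlings, fewer cells of a type and less RNA per cell cannot be told apart.

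In GLK1-SRDX against wild type, the cytosolic APX1 and the stromal SAPX rose, by 1.50-fold and 1.47-fold, and none of the other 6 tested genes passed the test. In glk1 glk2 against wild type, SAPX rose by 1.69-fold and the lumenal APX4 fell by 1.90-fold. CAT2 (higher) and CAT3 (lower) also passed when the arrays of these groups were paired by replicate number, which the reported fit does not do. The paired fit called 1420 of 20640 loci. Between the 2 lines, APX1, APX4, CAT1 and CAT3 were higher in GLK1-SRDX than in glk1 glk2. SAPX was called in both lines against the same wild-type arrays, which both comparisons share. The 2 of 8 tested genes called in GLK1-SRDX against wild type, both upward, stood beside 14.3% of all tested loci changed (7.89% rose and 6.40% fell). The 2 of 8 called in glk1 glk2 stood beside 3.30% of all tested loci changed (2.19% rose and 1.10% fell). The 4 of 8 called between the lines, all higher in GLK1-SRDX, stood beside 9.27% changed (5.55% rose and 3.72% fell). The median difference of the 8 genes was 0.28 in GLK1-SRDX against wild type, -0.14 in glk1 glk2 against wild type and 0.25 between the lines, and the medians of all tested loci were 0.0081, 0.0011 and -0.0097. The median of the 8 genes moved with the scaling, and so did the median of all loci. In glk1 glk2 against wild type these medians were 0.058 and 0.20 with median scaling. They were -0.33 and -0.19 in the authors' series value table, and -0.061 and -0.067 with normexp background. Without the replicate 3 array of glk1 glk2 they were -0.066 and 0.012. In GLK1-SRDX against wild type they were 0.47 and 0.20 with median scaling. Between the lines they were 0.54 and 0.28 in the series value table.

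**Figure D1:**
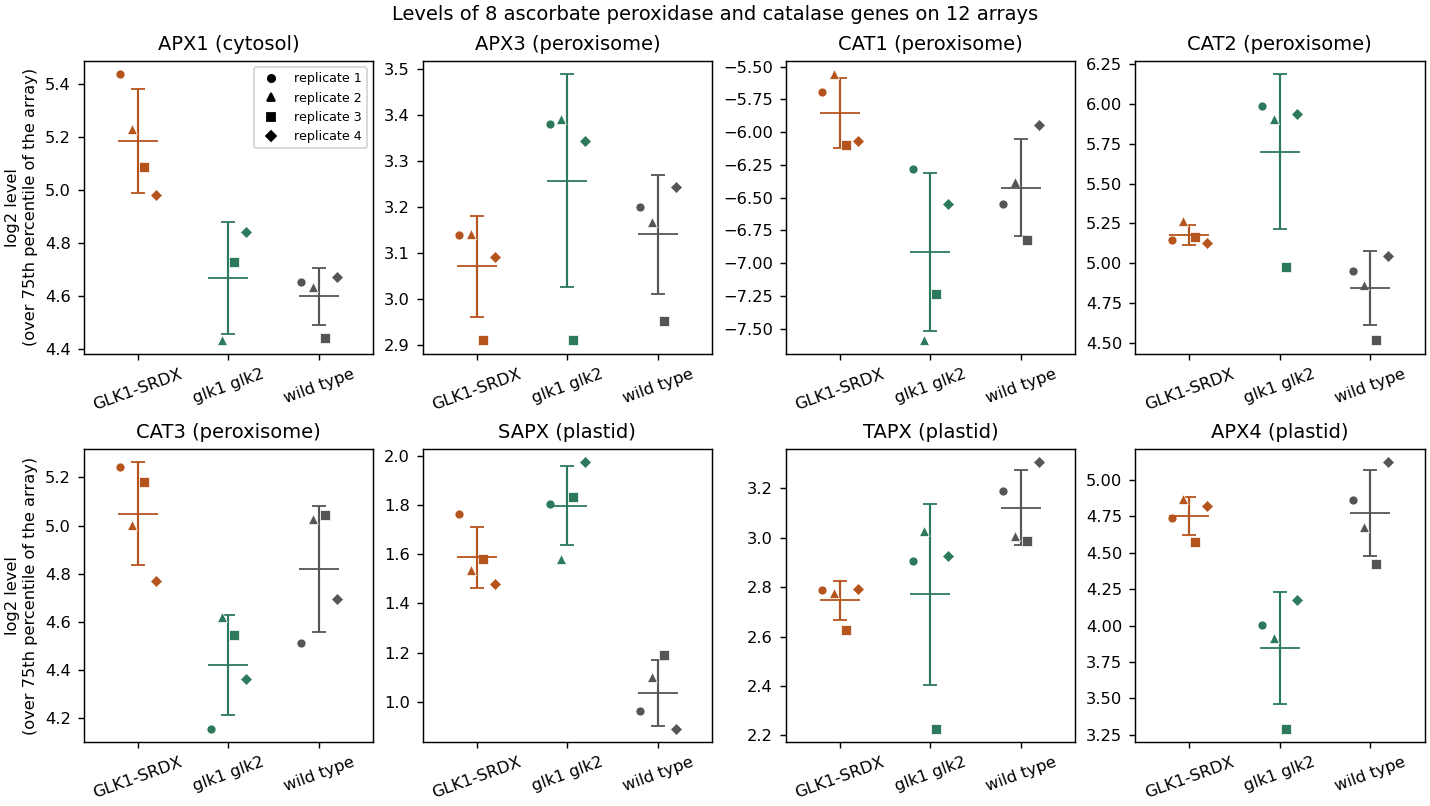
Level of each of the 8 tested genes on every array (log2 of processed intensity over the array's 75th percentile, y axes scaled per gene), with the horizontal line at the group mean and bars of 1 SD (n = 4, and n = 3 for APX1 in glk1 glk2). SAPX lies at 1.48 to 1.76 in GLK1-SRDX and 1.58 to 1.97 in glk1 glk2, above the 0.89 to 1.19 of wild type, and the replicate 3 array of glk1 glk2 is the lowest of its group for CAT2, TAPX, APX4 and APX3.

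APX1 (AT1G07890) is the main cytosolic isoform. Its levels were 5.44, 5.23, 5.09 and 4.98 in GLK1-SRDX. They were 4.43, 4.73 and 4.84 in glk1 glk2, where the spot on the replicate 1 array was marked as an outlier by the scanner software and left out of the fit, and 4.65, 4.63, 4.44 and 4.67 in wild type. Every GLK1-SRDX array lay above every array of both other genotypes, and glk1 glk2 overlapped wild type. APX1 averaged 5.18 ± 0.20 in GLK1-SRDX (SD, n = 4) and 4.60 ± 0.11 in wild type (n = 4), a difference of 0.58 ± 0.12 (SE, 95% interval 0.31 to 0.86, adjusted p = 0.0133). The difference of glk1 glk2 from wild type was 0.068 ± 0.13 (95% interval -0.23 to 0.36, adjusted p = 0.819). GLK1-SRDX exceeded glk1 glk2 by 0.52 ± 0.13 (adjusted p = 0.0377). This last call was lost, with adjusted p between 0.054 and 0.112, when any 1 of 7 arrays was left out, namely GLK1-SRDX replicate 1, 2 or 3, glk1 glk2 replicate 1 or 2, or wild-type replicate 1 or 2. APX1 in GLK1-SRDX against wild type passed whichever array was left out.

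APX2 (AT3G09640) encodes the cytosolic isoform known for its induction by heat and high light. Its probe was well above background on 0 of 12 arrays. The processed intensities ran from 3.85 to 7.97 in GLK1-SRDX, from 2.06 to 6.39 in glk1 glk2 and from 2.78 to 6.09 in wild type. No level or difference is given for it, and these arrays bound it only as not well above background in any of the 3 genotypes.

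In the peroxisome, CAT2 (AT4G35090), the major catalase of green leaves, had levels of 5.14, 5.27, 5.17 and 5.13 in GLK1-SRDX. Its levels were 5.99, 5.91, 4.98 and 5.93 in glk1 glk2 and 4.95, 4.87, 4.52 and 5.05 in wild type. In 3 of the 4 glk1 glk2 arrays CAT2 exceeded every array of the other genotypes, and the replicate 3 array fell among the wild-type values. CAT2 averaged 5.70 ± 0.48 in glk1 glk2 and 4.85 ± 0.23 in wild type (SD, n = 4 each), a difference of 0.86 ± 0.21 (SE, 95% interval 0.40 to 1.31, 1.81-fold, adjusted p = 0.0514), just short of the threshold. With the replicate number as a block the same difference had an adjusted p of 0.0363, and without the replicate 3 array of glk1 glk2 it was 1.10 ± 0.11 (adjusted p = 0.00131). That last fit kept the wild-type replicate 3 array, at 4.52 the lowest of wild type, so it left out only 1 array of that number. The difference passed in 7 of 25 alternatives. Within the slides the difference was 1.04 on slide 1 and 0.67 on slide 2. In GLK1-SRDX, CAT2 averaged 5.18 ± 0.064 and differed from wild type by 0.33 ± 0.21 (adjusted p = 0.308). GLK1-SRDX lay 0.52 ± 0.21 below glk1 glk2, a difference of -0.52 (adjusted p = 0.146) that was -0.77 without the replicate 3 array of glk1 glk2 (adjusted p = 0.00347).

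CAT3 (AT1G20620), a catalase known from vascular tissue and from its evening peak in the circadian cycle, differed from wild type in glk1 glk2 with the opposite sign to CAT2. Its levels were 5.24, 5.0, 5.18 and 4.77 in GLK1-SRDX, 4.16, 4.62, 4.55 and 4.36 in glk1 glk2, and 4.51, 5.03, 5.04 and 4.70 in wild type. All 4 GLK1-SRDX arrays lay above all 4 glk1 glk2 arrays, and wild type overlapped both lines. CAT3 averaged 5.05 ± 0.21 in GLK1-SRDX and 4.42 ± 0.21 in glk1 glk2 (SD, n = 4 each), a difference of 0.63 ± 0.16 (SE, 1.54-fold, adjusted p = 0.0301). This call was lost without GLK1-SRDX replicate 1, 2 or 3 or without glk1 glk2 replicate 1 or 4, with adjusted p between 0.058 and 0.092. Against wild type, CAT3 differed by 0.23 ± 0.16 in GLK1-SRDX (adjusted p = 0.349) and by -0.40 ± 0.16 in glk1 glk2 (adjusted p = 0.190). The glk1 glk2 difference passed in 1 of 25 alternatives, with the replicate number as a block (adjusted p = 0.0363). The dimmer second CAT3 probe gave 0.30 in GLK1-SRDX against wild type, -0.46 in glk1 glk2 against wild type and 0.76 between the lines, and its glk1 glk2 arrays did not overlap those of either other genotype.

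CAT1 (AT1G20630), the neighbouring locus of CAT3 on chromosome 1, is best known from pollen, seeds and stress responses. Its probe was dim. The processed intensity was 28.6 to 40.6 in GLK1-SRDX, 7.90 to 26.4 in glk1 glk2 and 17.7 to 31.2 in wild type, and it was well above background on 3 of the 4 glk1 glk2 arrays and on all 8 other arrays. Levels were -5.69, -5.56, -6.10 and -6.07 in GLK1-SRDX, -6.28, -7.59, -7.24 and -6.55 in glk1 glk2, and -6.55, -6.38, -6.82 and -5.94 in wild type. All GLK1-SRDX arrays lay above all glk1 glk2 arrays, and wild type overlapped both. CAT1 was 1.06 ± 0.29 higher in GLK1-SRDX than in glk1 glk2 (2.09-fold, adjusted p = 0.0426). That difference was 0.22 with normexp background correction (adjusted p = 0.938), and the call was also lost when any 1 of 8 arrays was left out (GLK1-SRDX replicates 1 to 4, glk1 glk2 replicates 2 and 3, wild-type replicates 1 and 2), with adjusted p between 0.061 and 0.114. Against wild type, CAT1 differed by 0.57 ± 0.29 in GLK1-SRDX (adjusted p = 0.205, and -0.52 with normexp) and by -0.49 ± 0.29 in glk1 glk2 (adjusted p = 0.370).

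APX3 (AT4G35000), an ascorbate peroxidase of the peroxisomal membrane, gave no call in any comparison. Its levels were 3.14, 3.14, 2.91 and 3.09 in GLK1-SRDX, 3.38, 3.39, 2.91 and 3.34 in glk1 glk2, and 3.20, 3.17, 2.95 and 3.24 in wild type. The 3 genotypes overlapped, and in each the replicate 3 array was the lowest. The differences were -0.070 for GLK1-SRDX against wild type (95% interval -0.33 to 0.19, adjusted p = 0.733), 0.12 for glk1 glk2 against wild type (adjusted p = 0.620) and -0.19 between the lines (adjusted p = 0.379).

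In the chloroplast, SAPX (AT4G08390), the stromal ascorbate peroxidase that is also targeted to mitochondria, was higher in both lines. Its levels were 1.76, 1.53, 1.58 and 1.48 in GLK1-SRDX, 1.80, 1.58, 1.83 and 1.97 in glk1 glk2, and 0.96, 1.10, 1.19 and 0.89 in wild type. All 8 arrays of the lines lay above all 4 wild-type arrays, while the lines overlapped each other. SAPX averaged 1.59 ± 0.12 in GLK1-SRDX, 1.80 ± 0.16 in glk1 glk2 and 1.04 ± 0.13 in wild type (SD, n = 4 each). It rose by 0.55 ± 0.10 in GLK1-SRDX (SE, adjusted p = 0.00669) and by 0.76 ± 0.10 in glk1 glk2 (adjusted p = 0.00441), and both calls passed whichever array was left out. Within the slides SAPX was higher in glk1 glk2 by 0.66 on slide 1 and by 0.86 on slide 2. Between the lines the difference was -0.21 ± 0.10 (95% interval -0.44 to 0.019, adjusted p = 0.247).

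APX4 (AT4G09010) separated the lines. Its levels were 4.74, 4.87, 4.57 and 4.82 in GLK1-SRDX, 4.0, 3.92, 3.29 and 4.17 in glk1 glk2, and 4.87, 4.68, 4.42 and 5.12 in wild type. Every glk1 glk2 array lay below every array of the other genotypes, and GLK1-SRDX overlapped wild type. APX4 averaged 4.75 ± 0.13 in GLK1-SRDX, 3.85 ± 0.38 in glk1 glk2 and 4.77 ± 0.30 in wild type (SD, n = 4 each). It fell in glk1 glk2, with a difference of -0.92 ± 0.19 from wild type (SE, 95% interval -1.35 to -0.50, 1.90-fold, adjusted p = 0.0294), and the difference was -0.81 within slide 1 and -1.04 within slide 2. This call was lost, with adjusted p between 0.0504 and 0.096, without GLK1-SRDX replicate 2, glk1 glk2 replicate 1 or 2, or wild-type replicate 1, 2 or 4. With the replicate number as a block it had an adjusted p of 0.0215. GLK1-SRDX differed from wild type by -0.020 ± 0.19 (95% interval -0.45 to 0.41, adjusted p = 0.959) and exceeded glk1 glk2 by 0.90 ± 0.19 (1.87-fold, adjusted p = 0.0159), a call lost without GLK1-SRDX replicate 2 (adjusted p = 0.0501).

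TAPX (AT1G77490), the thylakoid-bound isoform, had levels of 2.79, 2.78, 2.63 and 2.79 in GLK1-SRDX, 2.90, 3.03, 2.23 and 2.93 in glk1 glk2, and 3.19, 3.01, 2.99 and 3.30 in wild type. All GLK1-SRDX arrays lay below all wild-type arrays, whereas glk1 glk2 overlapped wild type through its replicate 2 array. TAPX averaged 2.75 ± 0.079 in GLK1-SRDX and 3.12 ± 0.15 in wild type (SD, n = 4 each). The difference of -0.38 ± 0.16 did not pass (SE, adjusted p = 0.136). It passed in 3 of 23 alternatives, among them the fit of only GLK1-SRDX and wild type (adjusted p = 0.0243) and the fit without the replicate 3 array of glk1 glk2 (adjusted p = 0.0139). That array enters this comparison only through the shared estimate of the spread. In glk1 glk2 the difference from wild type was -0.35 ± 0.16 (adjusted p = 0.254), with -0.13 within slide 1 and -0.57 within slide 2. Between the lines it was -0.025 ± 0.16 (adjusted p = 0.949).

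**Figure D2:**
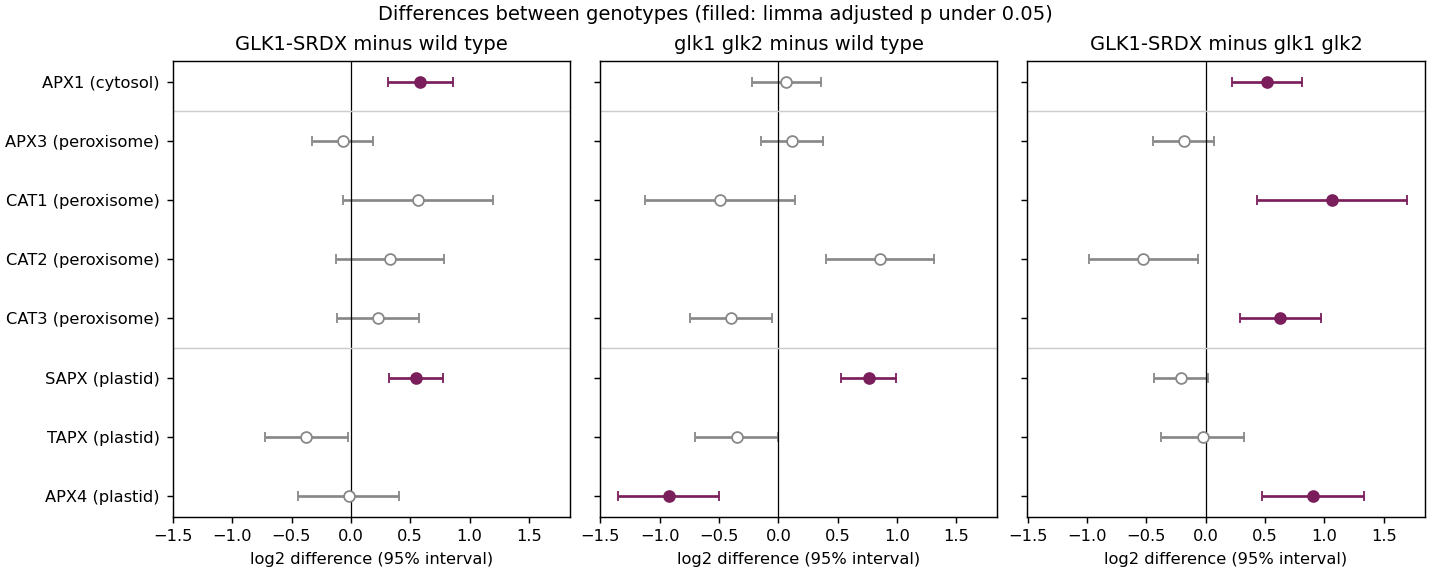
Fitted log2 difference of the 8 tested genes in each comparison with its 95% interval (x axes), ordered by compartment, filled points having a limma adjusted p under 0.05. Of the plastid genes SAPX lies at 0.55 and 0.76 against wild type and APX4 at -0.020 and -0.92, while the filled points between the lines are APX1, CAT1, CAT3 and APX4.

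The compartments were set side by side as the mean deviation of their tested genes from the wild-type mean on each array, as a description without a test. The cytosol, represented by APX1 alone, deviated by 0.58 ± 0.20 in GLK1-SRDX (SD, n = 4) and by 0.068 ± 0.21 in glk1 glk2 (n = 3). The 4 peroxisomal genes deviated by 0.26 ± 0.12 in GLK1-SRDX and by 0.021 ± 0.23 in glk1 glk2 (n = 4 each), with a wild-type SD of 0.15. The 3 plastid genes deviated by 0.052 ± 0.073 in GLK1-SRDX and by -0.17 ± 0.25 in glk1 glk2, with a wild-type SD of 0.10. When 1 array was left out, the means of glk1 glk2 ran from -0.019 to 0.185 for APX1, from -0.044 to 0.126 for the peroxisome and from -0.244 to -0.053 for the plastid, and those of GLK1-SRDX from 0.501 to 0.652, from 0.207 to 0.319 and from 0.016 to 0.095. The ends at 0.126 and -0.053 were without the replicate 3 array of glk1 glk2, and the peroxisome mean of glk1 glk2 was below 0 without glk1 glk2 replicate 1 or 4 or wild-type replicate 1 or 3. Compartment means near 0 held genes that lay on opposite sides. The deviation of SAPX exceeded that of TAPX on the same array by 0.93 ± 0.14 in GLK1-SRDX and by 1.11 ± 0.44 in glk1 glk2, and it exceeded that of APX4 by 0.57 ± 0.21 in GLK1-SRDX and by 1.68 ± 0.40 in glk1 glk2. In the peroxisome, the deviation of CAT2 exceeded that of CAT3 by 1.25 ± 0.61 in glk1 glk2 and by 0.10 ± 0.22 in GLK1-SRDX, with a wild-type SD of 0.45. On the glk1 glk2 arrays this CAT2 excess ran from 0.40 (replicate 3) to 1.81 (replicate 1), and the highest wild-type array was at 0.41.

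Across arrays, and as a description only, the levels of SAPX and TAPX had a Pearson r of -0.67 and those of CAT2 and CAT3 an r of -0.61 (12 arrays each). APX3 and CAT2 had an r of 0.76, and APX1 and CAT1, whose probe was dim, an r of 0.77 (11 arrays). Other pairs had an r of like size, among them APX4 and CAT1 (0.75), SAPX and APX4 (-0.64) and SAPX and CAT2 (0.62). The arrays share genotype, slide and scaling. Among the 9009 tested loci that have a symbol and are not members, those with the pattern most like each gene over the arrays were named. For APX4 these were Lhca6, a photosystem I antenna protein (r = 0.994), and BT3 (r = 0.990). Lhca6 differed from wild type by -0.12 in GLK1-SRDX and by -1.43 in glk1 glk2. For TAPX they were CRD1, a chlorophyll synthesis enzyme (r = 0.949), and PGK1, a phosphoglycerate kinase (r = 0.947). For SAPX they were PUR2 (r = 0.953) and SHM3, a serine hydroxymethyltransferase (r = 0.944), and for CAT2 P5CS2, an enzyme of proline synthesis (r = 0.979), and SK2, a shikimate kinase (r = 0.966). For CAT3 they were ISA3, a starch debranching enzyme (r = 0.953), and MPK7, a MAP kinase (r = 0.912). The closest to APX1 were AKR4C8, an aldo-keto reductase (r = 0.964 over 11 arrays), and TH8, a thioredoxin (r = 0.945), which was 2.58 above wild type in GLK1-SRDX and 0.25 above it in glk1 glk2. AGL65 (r = 0.973) and PSRP6 (r = 0.972) were closest to APX3, and GLYI8 (r = 0.922) and ERD2B (r = 0.905) to CAT1.

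The genes that supply and regenerate ascorbate, remove hydrogen peroxide by other routes or produce and sense it were taken as 6 lists of 56 genes, of which 53 were tested. Of the 10 enzymes of the ascorbate-glutathione cycle, 0 passed in each of the 3 limma comparisons, and the genes with an unadjusted p under 0.05 were 2 in GLK1-SRDX against wild type, 1 in glk1 glk2 and 0 between the lines. Their median differences were 0.15, 0.092 and -0.0097. Of all 20640 tested loci, 6342, 4051 and 5054 had an unadjusted limma p under 0.05 in the same order of comparisons. The same numbers stand beside the unadjusted counts of the lists that follow. GR1, a glutathione reductase, differed by 0.45 ± 0.17 in glk1 glk2 (adjusted p = 0.191). It passed in 2 of 25 alternatives, 1 of them with the replicate number as a block (adjusted p = 0.0384). The smallest p in the other comparisons belonged to MDAR1, a monodehydroascorbate reductase (0.28 in GLK1-SRDX against wild type, adjusted p = 0.129), and DHAR2, a dehydroascorbate reductase (0.35 between the lines, adjusted p = 0.223). Without the replicate 3 array of glk1 glk2, 1 gene of the list rose in each comparison that involves glk1 glk2, GR1 against wild type (0.58, adjusted p = 0.0412) and DHAR2 between the lines (0.51, adjusted p = 0.0239). In that fit 1391 and 1471 of 20587 loci rose in these comparisons. For DHAR2 this was the 1 pass in 23 alternatives.

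Of 7 genes of ascorbate synthesis, 1 rose in glk1 glk2 and 0 passed in GLK1-SRDX against wild type. GME, a GDP-mannose epimerase of the L-galactose pathway, rose by 0.61 ± 0.13 in glk1 glk2 (adjusted p = 0.0307) and was lower in GLK1-SRDX than in glk1 glk2, with a difference of -0.64 ± 0.13 (adjusted p = 0.0124). The call of GME against wild type was lost when any 1 of 8 arrays was left out, with adjusted p between 0.053 and 0.090. GLDH, the mitochondrial enzyme of the last step, differed by 0.21 ± 0.067 in GLK1-SRDX (adjusted p = 0.0591, and 0.0470 without the replicate 3 array of glk1 glk2). It passed in 4 of 23 alternatives. In GLK1-SRDX against wild type, 3 genes of this list had an unadjusted p under 0.05 (median difference 0.21), beside 6342 of 20640 loci.

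Of 12 tested genes among the other peroxidases of hydrogen peroxide (peroxiredoxins, glutathione peroxidases and the APX relatives APX5 and APX6), 0 passed in each comparison, with 2, 1 and 2 at an unadjusted p under 0.05. The smallest p in GLK1-SRDX against wild type was that of GPX6 (0.51 ± 0.18, adjusted p = 0.0781), and in glk1 glk2 that of GPX1 (0.62 ± 0.25, adjusted p = 0.198). Both are glutathione peroxidase family genes, and between the lines GPX1 differed by -0.63 (adjusted p = 0.146). Without the replicate 3 array of glk1 glk2, 13 genes of this list were tested. Of these, 4 rose in glk1 glk2 against wild type (median 0.21, against 0.063 with all arrays), beside 1391 of 20587 loci. In GLK1-SRDX against wild type 1 rose, beside 2180 loci, and 2 were lower in GLK1-SRDX than in glk1 glk2, beside 1210. In the same fit GPX1 was at 0.92 in glk1 glk2 against wild type (adjusted p = 0.00367) and at -0.93 between the lines (adjusted p = 0.00201). These were its only passes, among 25 and 23 alternatives. GPX6 in GLK1-SRDX against wild type passed in 4 of 23 alternatives, among them the fit of only those groups (adjusted p = 0.0459).

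Photorespiration, the source of peroxisomal hydrogen peroxide that catalase removes, was represented by 12 tested genes. In GLK1-SRDX against wild type all 12 differences lay below 0 (median -0.20), whereas 7 of 12 did with median scaling, which lifts the median of all loci by about 0.20 (list median -0.016). All 12 also lay below 0 in GLK1-SRDX against glk1 glk2 (median -0.43, with 9 of 12 below 0 in the authors' series value table), a comparison that shares the GLK1-SRDX arrays. In each, 1 of the 12 passed. GLYK, the glycerate kinase of the last step, fell by 0.44 ± 0.071 in GLK1-SRDX against wild type (adjusted p = 0.00272, and 0.168 with median scaling) and by 0.57 ± 0.071 against glk1 glk2 (adjusted p = 0.00119). In glk1 glk2 against wild type 9 of 12 lay above 0 (median 0.14) and 0 passed, with 1 at an unadjusted p under 0.05, AGT1, a peroxisomal aminotransferase (0.34 ± 0.12, adjusted p = 0.157). Without the replicate 3 array of glk1 glk2, 5 of the 12 genes rose in glk1 glk2 against wild type (median 0.38), beside 1391 of 20587 loci. In the same fit 9 of the 12 were lower in GLK1-SRDX than in glk1 glk2 at an adjusted p under 0.05 (median -0.59), beside 1210 of 20587 loci.

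Of 9 tested genes of the hydrogen peroxide and heat response, 0 passed in each comparison, with 1, 1 and 2 at an unadjusted p under 0.05. In this list 1 gene fell in GLK1-SRDX against wild type with normexp background, beside 718 of 20640 loci. In glk1 glk2 against wild type 1 fell without the replicate 3 array of glk1 glk2, beside 1829 of 20587 loci. ZAT12, a zinc finger factor of oxidative stress, lay at -0.64 ± 0.26 in GLK1-SRDX against wild type (adjusted p = 0.126), the heat shock protein HSP101 at -0.34 ± 0.15 in glk1 glk2 (adjusted p = 0.249), and the heat shock factor HSFA2 at 1.27 ± 0.46 between the lines (adjusted p = 0.112). The 3 catalase partners and regulators gave 0 calls and 0 unadjusted p under 0.05 in each comparison. The catalase chaperone NCA1 differed by 0.14 in glk1 glk2 (adjusted p = 0.621), GBF1, a bZIP factor known to act on CAT2, by -0.25 in GLK1-SRDX (adjusted p = 0.356), and LSD1, a catalase-interacting zinc finger protein, by 0.14 between the lines (adjusted p = 0.338).

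**Figure D3:**
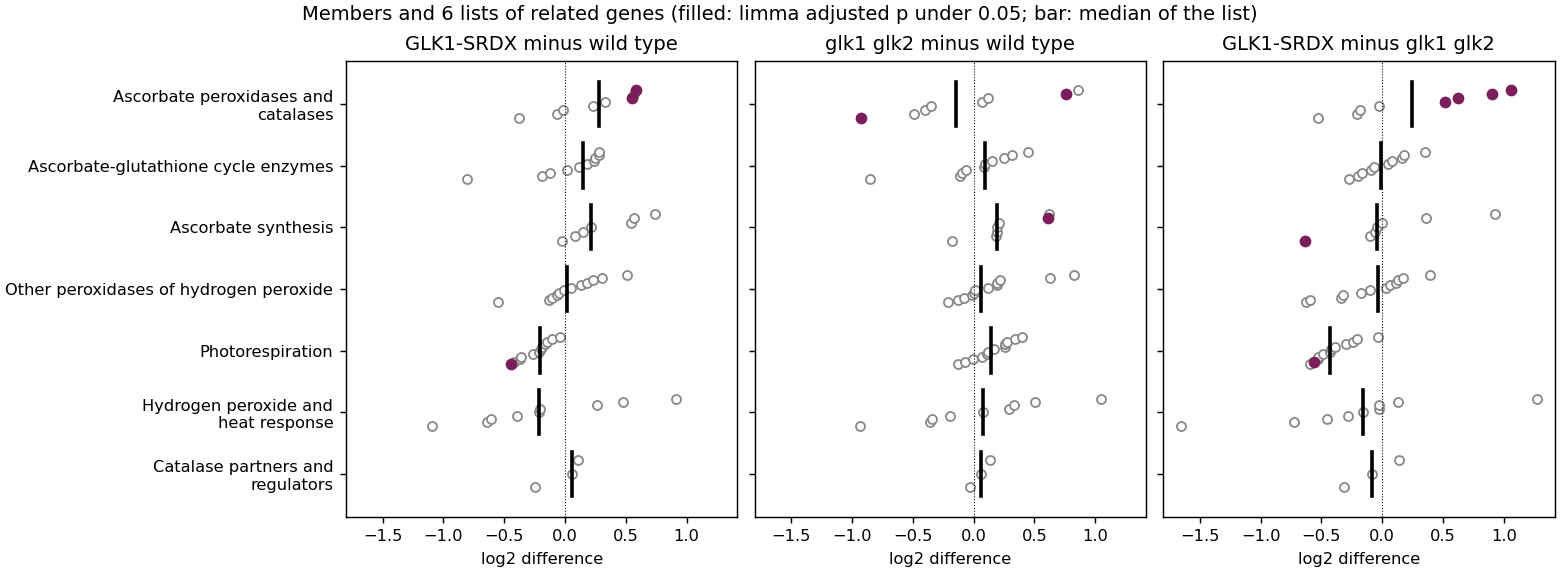
Log2 difference of each tested gene (points, x axes) for the 8 ascorbate peroxidase and catalase genes and 6 lists of related genes, with a bar at the median of each list and filled points for a limma adjusted p under 0.05. At the 75th-percentile scaling the 12 photorespiration genes lie below 0 in both comparisons of GLK1-SRDX, with GLYK as the filled point. With median scaling, 7 of 12 lie below 0 against wild type, and all 12 below the median of all loci. The cycle enzymes hold no filled point.

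Tissue markers were set beside these results. All 20 root markers were tested, and 18 to 20 of them were well above background on each array. In GLK1-SRDX against wild type 18 of the 20 lay below 0 (median difference -0.98). CASP1 to CASP5, ESB1 and PRP3 were the 7 that fell, beside 6.40% of all tested loci. SCR, SULTR1;2, SHR and PYK10 were at -0.0033, -0.078, -0.20 and -0.27, and HAK5 (1.69) and NRT2.1 (1.08) lay above 0, none of them called. Without the replicate 3 array of glk1 glk2, 12 fell, beside 2232 of 20587 loci. With normexp background 2 fell, beside 718 of 20640. In glk1 glk2, 0 passed and 11 had an unadjusted p under 0.05 (median -0.94), beside 4051 of 20640 loci. Without the replicate 3 array of glk1 glk2, 13 fell (median -1.32), beside 1829 of 20587 loci. The median level of the root markers per array ran from -2.18 to -1.59 in GLK1-SRDX, from -2.88 to -1.16 in glk1 glk2 and from -1.63 to -0.83 in wild type. Of 9 green shoot markers, each well above background on every array, 1 fell in GLK1-SRDX (CA1, a carbonic anhydrase, by 1.10, adjusted p = 0.0166). In glk1 glk2, 0 passed, with 1 at an unadjusted p under 0.05, beside 4051 of 20640 loci. All 9 lay below 0 in GLK1-SRDX against wild type (median -0.20), and 5 of 9 did with median scaling. Between the lines 8 of 9 lay below 0 (median -0.21), and in glk1 glk2 against wild type 4 of 9 did (median 0.029). The 12 photorespiration genes lay on the same side in both comparisons of GLK1-SRDX. The median level of the green shoot markers per array was 6.30 to 6.53 in GLK1-SRDX, 5.81 to 6.64 in glk1 glk2 and 6.24 to 6.62 in wild type. The part of tissue proportions in the differences of the ascorbate peroxidase and catalase genes was not tested.

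**Figure D4:**
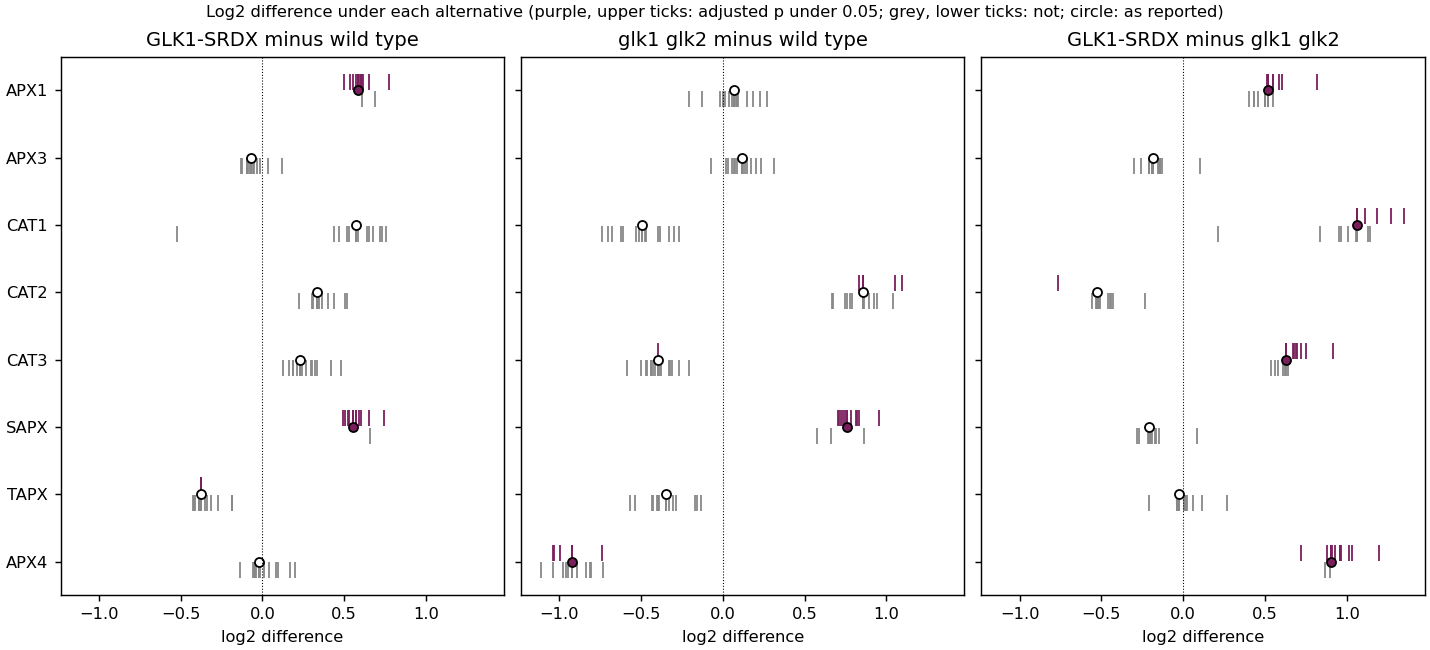
Log2 difference of the 8 tested genes (x axes) as reported (circles, filled where limma adjusted p was under 0.05) and under each alternative (upper purple ticks where the adjusted p was under 0.05, lower grey ticks where it was not). SAPX against wild type keeps nearly all its ticks in the upper row in both lines, passing in 22 of 23 alternatives for GLK1-SRDX and in 22 of 25 for glk1 glk2, while CAT1 between the lines has a grey tick at 0.22.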

How the data were processed

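Seedling RNA (1 µg of total RNA per array, per the labels) was labelled with Cy3. The deposited scanner files came from Agilent Feature Extraction 9.1.3.1 (submitters' processing notes), and their processed intensity is linear and background-subtracted, per the file headers. The authors' series value table, also a linear and uncentred intensity, held that signal divided by a constant for each genotype: 892 for GLK1-SRDX, 1077 for glk1 glk2 and 974 for wild type. Its column medians lay between 0.0798 and 0.168. Where these constants come from was not given in the sources used here.

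Control spots and those with an outlier mark (6 to 86 per array) were dropped, repeated spots were averaged, and log2 intensity was set relative to the 75th percentile of the array (1522 to 2480). Of 37478 probes, 26236 named a locus. Of the non-control spots on each array, marked ones included, 64.1% to 68.7% were well above background, and 0 were saturated. A probe had to be well above background on 4 or more of the 12 arrays and free of marks on 3 or more arrays in each genotype. The brightest such probe stood for a locus. The RefSeq gene table of TAIR10.1, used for symbols and neighbouring genes, held 20521 of the 20640 tested loci, 9080 of them with a symbol.

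The test was limma 3.58.1 under R 4.3.3, with lmFit and eBayes over all 12 arrays (9 residual degrees of freedom). It was two-sided, and p-values were adjusted by Benjamini-Hochberg over every tested locus. The number of arrays limits the precision (median standard error 0.143). In a simulation of GLK1-SRDX against wild type over 20640 genes, 71 of 100 log2 changes of 1 and 91 of 100 changes of 2 were recovered, with 8 false calls. It changed 200 loci, against 2948 called in the data, and drew normal noise separately for each gene. Effects shared by an array or slide were left out, so recovery and false calls on these arrays can differ. The members and gene lists were chosen with earlier results of these data known. Named were all members, GLK1, GLK2, from each list and comparison up to 2 passing genes with the largest change (otherwise the gene with the smallest p), and for each member the 2 loci of most similar pattern. CA1 was named after its value was seen, as the 1 green shoot marker called, and the root markers were also named after their values were seen.

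Same-numbered glk1 glk2 and wild-type arrays deviated together from their group means (r of 0.319, 0.383, 0.464 and 0.757), so these numbers were taken to pair the arrays. GLK1-SRDX and wild type did not as a set (-0.0642, -0.2, 0.261 and 0.00877), nor did the lines (-0.00794, 0.195, 0.577 and -0.096). In both of these comparisons the replicate 3 arrays alone were the best match of each other. Alternatives covered normexp background, median and quantile scaling, the series value table, the filter on dim probes, averaging the probes of a locus, a trended and robust eBayes, fits of only the groups compared, blocks for replicate and slide, and omission of each array. Normexp started from the median foreground signal. No sequence was used here.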

Additional observations from a re-analysis of the deposited data

Results flagged for a closer look

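In 5 of the 23 sets of arrays tested (8 genes in 3 genotypes, without APX1 in glk1 glk2, where 3 arrays remained), 1 array stood apart from the others of its genotype, its gap to the nearest array, as a share of the whole range, exceeding Dixon's 95% critical value. Chance flags about 5% of such sets, but these sets share the same 12 arrays and are not independent, so no excess is read from the count. In glk1 glk2, the replicate 3 array had a CAT2 level of 4.98 (5.91 to 5.99 on the other arrays of the genotype). The same array had a TAPX level of 2.23 (2.90 to 3.03 on the others) and an APX3 level of 2.91 (3.34 to 3.39 on the others). In GLK1-SRDX, the replicate 3 array had a TAPX level of 2.63 (2.78 to 2.79 on the others). In wild type, the replicate 3 array had an APX1 level of 4.44 (4.63 to 4.67 on the others). All 5 lay on a replicate 3 array, and in all 5 the array was the lowest of its genotype.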

How the results depend on the processing

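The numbers of ascorbate peroxidase and catalase genes called (2 in GLK1-SRDX against wild type, 2 in glk1 glk2 against wild type and 4 between the lines) depended on several settings, and the cause was not tested unless named. In GLK1-SRDX against wild type 1 was called with normexp background, 0 in the series value table, and 1 when a probe had to be well above background on all arrays, where APX1 left the test because of its marked spot, while the fit of only the groups compared called 3, adding TAPX (adjusted p = 0.0243). In glk1 glk2 against wild type 1 was called with normexp, 0 in the series value table, 1 in the fit of only the groups compared and 0 within slide 1 or slide 2, with 2 arrays per group (for APX1 on slide 1, 1 glk1 glk2 array, since the other spot was marked), whereas the fit with the replicate number as a block called 4 (SAPX and CAT2 higher, CAT3 and APX4 lower) and, beside these, changed the call of GR1 and of no other named gene in this comparison. Between the lines 2 were called with normexp, 0 with median scaling, 2 without the filter on dim probes, 2 with the filter on all arrays, 2 in the fit of only the groups compared and 1 with the replicate number as a block. Same-numbered arrays did not deviate together there, except those of replicate 3. That also held for GLK1-SRDX against wild type, where the block called 3 by adding TAPX (adjusted p = 0.0487). Leaving out 1 array gave 2 to 3, 1 to 3 and 0 to 4 calls in the 3 comparisons. The mean difference of the peroxisomal genes between GLK1-SRDX and wild type was 0.094 with normexp and 0.45 with median scaling, and that of the plastid genes was 0.22 and 0.24.

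Differences that changed sign were all of comparisons without a call. For GLK1-SRDX against wild type, APX3 was 0.12 with median scaling and 0.035 in the series value table, APX4 was 0.20 with normexp, 0.17 with median scaling, 0.085 in the series value table and -0.14 to 0.097 when 1 array was left out (above 0 without GLK1-SRDX replicate 3 or wild-type replicate 1 or 4), and CAT1 was -0.52 with normexp. For glk1 glk2 against wild type, APX1 was -0.13 in the series value table, -0.21 within slide 1 and -0.019 to 0.185 when 1 array was left out (below 0 without glk1 glk2 replicate 4), APX3 was -0.070 and NCA1 -0.049 in the series value table. Between the lines, APX3 was 0.11 and SAPX 0.082 in the series value table, and TAPX was 0.12 with normexp, 0.0030 with quantile normalization, 0.27 in the series value table and 0.014, 0.019, 0.060 and 0.026 without GLK1-SRDX replicate 3 and glk1 glk2 replicates 1, 2 and 4.

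Over all loci, 2948, 681 and 1913 were called in the 3 comparisons. The fit of only the groups compared called 4418 in GLK1-SRDX against wild type. The numbers were 1605, 254 and 599 with normexp, 4712, 1944 and 1205 with median scaling, and 905 and 136 against wild type in the series value table. In glk1 glk2 against wild type they were 115 in the fit of only the groups compared, 1420 with the replicate number as a block, and 20 and 0 within the slides (4925 and 301 at an unadjusted p under 0.05). Between the lines they were 1260 in the fit of only the groups compared and 715 with the block. Leaving out 1 array gave 1500 to 4412, 250 to 3220 and 993 to 2681. Median scaling moved the median of all loci by about 0.20 in both comparisons with wild type, and higher loci made up 79.9% of the calls in GLK1-SRDX (55.2% as reported) and 91.5% in glk1 glk2 (66.5% as reported). In the series value table they made up 2.94% in glk1 glk2 and 90.4% between the lines (59.9% as reported). Dim probes limit CAT1 and APX2.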

Other observations

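The replicate 3 array was the lowest of its genotype in all 3 genotypes for 3 of the 8 tested genes, namely APX3, APX4 and TAPX. On the same arrays the median level of the 9 green shoot markers was the lowest of each genotype, at 6.30 in GLK1-SRDX, 5.81 in glk1 glk2 and 6.24 in wild type. The median level of the 20 root markers was the highest of each genotype there, at -1.59 in GLK1-SRDX, -1.16 in glk1 glk2 and -0.83 in wild type. SAPX did not share this order, since its replicate 3 level was the highest of wild type (1.19) and the second highest in each of the lines (1.58 in GLK1-SRDX and 1.83 in glk1 glk2). The part of tissue composition in these values was not tested.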
